A study of Mus musculus with 20 samples.

Results

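Acute phase proteins are plasma proteins whose liver output shifts within hours of injury or infection. The 10 genes described here are SAA1, SAA2 and SAA4, which encode serum amyloid A proteins; CRP and APCS, the pentraxins; ORM1 and ORM2, the orosomucoids; HP and HPX, haptoglobin and hemopexin; and LCN2, lipocalin 2. They were taken by name from the 60607 human genes measured in humanized livers and, ignoring case, from the 55335 mouse genes measured in WT livers, and 10 of 10 were found in each. RNA of 20 livers was sequenced. In humanized TK-NOG mice, 4 livers received adenovirus carrying an shRNA against human HuR (humanized HuR KD) and 4 the control virus (humanized LacZ). In WT C57BL/6 mice, 6 livers received an shRNA against mouse HuR (WT HuR KD) and 6 the control virus (WT LacZ). The C57BL/6 mice were male. Each mouse was given 2000000000 pfu, and livers were taken on day 7 after a 4 h fast. TK-NOG is an immune-deficient strain with a viral thymidine kinase transgene driven by the mouse albumin promoter. Its own hepatocytes were removed with ganciclovir at 8 to 9 weeks of age, human primary hepatocytes were transplanted, and mice entered the experiment after 8 to 12 weeks if human albumin in serum was high enough. These livers therefore still held mouse cells, whose genes are not in the table of human genes. WT mice were bought at 8 weeks. The humanized and WT sets differ in host strain, immune status, shRNA and sequencing read length. They also differ in age, and only the humanized mice had ganciclovir treatment and hepatocyte transplantation beforehand. Each of these differences runs along with species, so their parts cannot be separated here. Labels do not say how many hepatocyte donors were used, so the spread among humanized livers may not be spread among people.

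As background, hepatocytes switch acute phase genes on mainly through interleukin-6, which signals through the shared receptor chain gp130 and JAK kinases to STAT3, and through interleukin-1 and TNF, which act through NF-κB; C/EBP factors bind many of their promoters. Serum amyloid A 1 and 2 travel on high-density lipoprotein and are the classic fast responders, whereas SAA4 is the constitutive member of that family. CRP is a major acute phase protein in people and a minor one in mice, whose pentraxin response is carried by Apcs. Haptoglobin binds free hemoglobin, hemopexin binds free heme, orosomucoids carry small lipophilic ligands, and lipocalin 2 binds bacterial siderophores. HuR, encoded by ELAVL1, binds AU-rich stretches in mRNA and affects mRNA stability and translation.

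The promoters of 4 mouse members named in the results below are shown. Saa1 and Saa2 varied together from liver to liver, while Saa4 and Hpx were lower with knockdown. Whether promoter sequence has a part in either was not tested. RefSeq promoter sequence on GRCm38.p6 matched 8 of the 10 members. The searched window is the 250 bases before the RefSeq start, on the gene's strand. Bases that lie inside the gene by the GENCODE start (43 for Saa2, 21 for Hpx) are not shown. Capitals mark each match to the C/EBP motif TTNNGCAA on either strand.
Saa1, chr7:46742981-46743230, minus strand: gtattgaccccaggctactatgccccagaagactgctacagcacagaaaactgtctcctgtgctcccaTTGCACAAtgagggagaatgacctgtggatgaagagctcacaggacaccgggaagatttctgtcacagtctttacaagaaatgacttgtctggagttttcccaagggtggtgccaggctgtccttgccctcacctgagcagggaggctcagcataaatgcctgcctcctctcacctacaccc
Saa2, chr7:46751583-46751789, plus strand: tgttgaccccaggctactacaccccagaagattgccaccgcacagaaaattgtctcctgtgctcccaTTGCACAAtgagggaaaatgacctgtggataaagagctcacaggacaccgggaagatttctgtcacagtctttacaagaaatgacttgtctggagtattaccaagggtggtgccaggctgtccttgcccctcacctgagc
Saa4, chr7:46732604-46732853, minus strand: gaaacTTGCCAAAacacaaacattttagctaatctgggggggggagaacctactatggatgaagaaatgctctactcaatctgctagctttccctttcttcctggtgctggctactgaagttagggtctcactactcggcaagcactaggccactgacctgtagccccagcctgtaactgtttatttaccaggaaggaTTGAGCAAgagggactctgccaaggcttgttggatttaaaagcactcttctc
Hpx, chr7:105600138-105600366, minus strand: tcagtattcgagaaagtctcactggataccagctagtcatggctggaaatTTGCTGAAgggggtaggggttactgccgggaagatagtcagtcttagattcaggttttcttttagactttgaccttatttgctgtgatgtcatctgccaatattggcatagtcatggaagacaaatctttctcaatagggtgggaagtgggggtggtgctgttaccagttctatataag
Of the 8 members with a promoter, 6 (Saa1, Saa2, Saa4, Orm2, Hpx and Lcn2) held the C/EBP motif, against 9.56% of 32851 mouse promoters of that length. The window of Lcn2 lies wholly inside the gene by the GENCODE start. The STAT motif TTCNNNGAA was found in that of Apcs, and in 7.02% of all promoters. An NF-κB motif was matched in 0 of the 8 and in 7.25% of all promoters. The windows of Saa1 and Saa2 were 94.8% identical after alignment, with 13 edits, and the match lay 182 to 175 bases before the RefSeq start of Saa1 and 183 to 176 before that of Saa2. From the GENCODE start, which is the same for Saa1 but not for Saa2, the match of Saa2 lay 140 to 133 bases away. Saa4 was 51.2% identical to Saa1 in the same window and held its matches elsewhere, at 245 to 238 and 52 to 45 bases before the start. A match is a run of letters and not evidence of binding, which was not measured here.

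In the mouse the serum amyloid genes lie side by side on chromosome 7 (GRCm38): Saa4 (ENSMUSG00000040017.8) at chr7:46727998-46732603, Saa1 (ENSMUSG00000074115.5) at chr7:46740497-46742980 and Saa2 (ENSMUSG00000057465.5) at chr7:46751790-46754313. The orosomucoid genes form a second cluster, with Orm1 (ENSMUSG00000039196.2) at chr4:63344560-63348163, Orm3 at chr4:63356162-63359511 and Orm2 (ENSMUSG00000061540.3) at chr4:63362449-63365878. Hpx (ENSMUSG00000030895.9) lies at chr7:105591613-105600137 and Hp (ENSMUSG00000031722.10) at chr8:109575128-109579172. Crp (ENSMUSG00000037942.5) and Apcs (ENSMUSG00000026542.6) are neighbours on chromosome 1. Saa1 and Saa2, Orm1, Orm2 and Orm3, and in human HP and its near copy HPR, are similar enough that reads may have been split between copies, so values of single copies are uncertain. The same may hold for human SAA1, SAA2 and the read-through gene SAA2-SAA4. The libraries mark strand, but the strand setting used for counting is not given in the sources used here. Nor is it given whether reads that fit several genes were counted or dropped.

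Reads counted on genes, recovered from the steps of the TPM values, ran from 2671704 to 20309590 in humanized and from 1424093 to 44669180 in WT livers. WT LacZ replicate 2 was the shallowest, and the other 11 WT livers had at least 12960736 reads. Values are TPM, a read count per gene length scaled to sum to 1000000 in each liver. Protein-coding genes took 28.9 to 37.8% of TPM in humanized and 75.6 to 77.6% in WT livers, so levels are not on one scale between the sets. HuR mRNA was lower with knockdown in each set. ELAVL1 was 2.37 to 4.05 TPM in humanized HuR KD and 4.77 to 6.17 TPM in humanized LacZ livers, and Elavl1 was 3.72 to 5.62 against 8.58 to 10.7 TPM in WT livers. Hepatocyte markers (8 human and 7 mouse genes) summed to 39320 to 81179 TPM in humanized and 60634 to 81766 TPM in WT livers. Over all genes, the deviations from their group means of humanized HuR KD replicate 4 and humanized LacZ replicate 2 correlated at r = 0.53 across genes. They were the deepest humanized libraries, at 20309590 and 19899776 reads, and the next had 8345437. Both were the lowest of their group for SAA4, HP and HPX. The part of depth in this was not tested. Deviations of WT LacZ replicates 4 and 5 correlated at r = 0.42. Where leaving out 1 of the livers that deviated together ended a member's call, the value without it is given. The same holds for control means printed below that it moved by more than 1.5 times. For fold changes that were not called, such values are given for some members only.

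Livers given the control virus were first compared to ask which acute phase transcripts each set held without HuR knockdown. The make-up differed between human genes in humanized livers and mouse genes in WT livers. In humanized LacZ livers the orosomucoids led, with ORM1 at 1138 ± 222 TPM (SD, n = 4) and ORM2 at 803 ± 121 TPM. They were followed by APCS at 726 ± 170.5 TPM, HPX at 455 ± 97.0 TPM, HP at 144 ± 39.0 TPM and SAA4 at 40.2 ± 19.6 TPM. ORM1, ORM2 and APCS overlapped in range with their neighbours in this order, whereas APCS and HPX, HPX and HP, and HP and SAA4 did not.

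CRP, SAA1, SAA2 and LCN2 were low in human cells. CRP read 5.10, 22.8, 2.68 and 2.43 TPM in humanized LacZ replicates 1 to 4, so that 1 liver set its mean of 8.26 ± 9.78 TPM (SD, n = 4), which was 3.41 TPM without LacZ replicate 2. SAA1 was listed at 0 in 7 of 8 humanized livers and at 0.128 TPM in LacZ replicate 2. SAA2 reached 1.68 TPM (41 reads) in that same liver and at most 0.346 TPM (3 reads) in the other 7. LCN2 was at 0 to 3.02 TPM over the 8 livers, again with LacZ replicate 2 on top. The read-through gene SAA2-SAA4 and the pseudogenes SAA3P and CRPP1 were listed at 0 in all 8. For SAA1, SAA2 and SAA2-SAA4, low values and those listed at 0 may also hold dropped reads that fit several genes. That was not tested.

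In WT LacZ livers the hemoglobin and heme carriers led. Hpx stood at 6297 ± 1881 TPM (SD, n = 6) and Hp at 4489 ± 778 TPM, with overlapping ranges. Orm1 followed at 942 ± 476 TPM, and its range, 604 to 1867 TPM, overlapped neither with that of Hp nor with that of Crp. Crp at 212 ± 21.4 TPM and Saa4 at 171 ± 32.5 TPM overlapped. Next by mean came Saa1 at 135 ± 187 TPM, Apcs at 123 ± 47.1 TPM, Saa2 at 65.3 ± 96.0 TPM, Orm2 at 60.2 ± 99.6 TPM and Lcn2 at 18.1 ± 15.7 TPM. From Crp down, each gene overlapped in range with the next in this order, while Apcs, at 75.1 TPM or more, lay above Lcn2, at 49.3 TPM or less. In Saa1, Saa2 and Orm2 the SD was larger than the mean. Without WT LacZ replicate 4 the means were 61.0 TPM for Saa1, 26.7 TPM for Saa2, 19.7 TPM for Orm2 and 11.9 TPM for Lcn2.

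Hpx and Hp together took most of the mouse members' summed TPM, with mean shares of 50.1% and 36.6%, while the human counterparts held 14.02% and 4.44%. ORM1, ORM2 and APCS held 34.1%, 24.2% and 21.7% of the human sum but 7.24%, 0.379% and 0.965% of the mouse sum. Without WT LacZ replicate 4 the Orm2 share was 0.171%. CRP held 0.234% of the human sum, or 0.111% without humanized LacZ replicate 2, and 1.79% of the mouse sum. By rank among all genes of the same liver, HP had a median rank of 257 of 60607 in humanized LacZ livers and Hp of 26 of 55335 in WT LacZ livers. APCS had a median rank of 52.5 and Apcs of 981. The summed level of the 10 was 3316 ± 363 TPM in humanized and 12513 ± 3422 TPM in WT control livers. Over protein-coding genes alone it was 10115 ± 1959 against 16277 ± 4411 TPM. Shares do not change with that rescaling. The tables were normalized apart, so these levels are set side by side with no test.

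**Figure D1:**
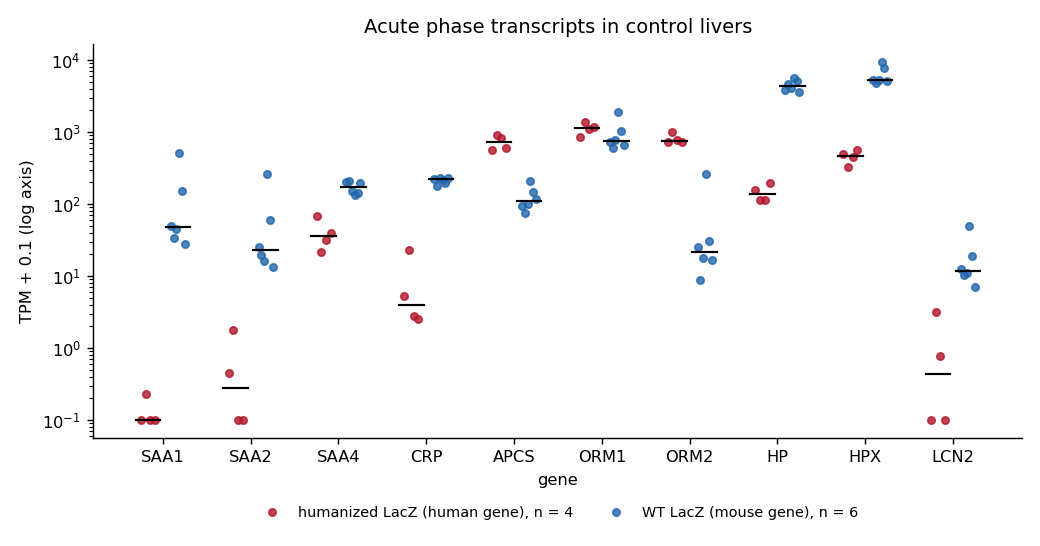
TPM + 0.1 on a log axis of each acute phase transcript in the 4 humanized LacZ livers (red, human genes) and 6 WT LacZ livers (blue, mouse genes), with a black line at each median. SAA1, SAA2, CRP and LCN2 sit near the bottom in human cells, where SAA1 reached 0.128 TPM in 1 liver, while mouse Hp and Hpx are at 3642 TPM or more and human HP and HPX at 554 TPM or less.

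Whether HuR knockdown moved these transcripts was tested with limma within each set, on log2(TPM + 1), for genes with a mean of at least 1 TPM. A gene was called at an unadjusted p under 0.05, the study's threshold for this experiment. In humanized livers 7 members could be tested (SAA1, SAA2 and LCN2 were too low), and HP and SAA4 were called higher, 2 of 7, with 0 called lower. The background was 11.5% of 12738 human genes called, 3.60% higher and 7.87% lower. In WT livers all 10 were tested, and Saa4 and Hpx were called lower, 2 of 10, with 0 called higher. There 16.0% of 15090 mouse genes were called, 9.09% higher and 6.94% lower. None of these 4 calls had an adjusted p under 0.05 in limma (0.212% of human and 0.888% of mouse genes had), and at 2 members a set the counts say little beyond the single genes. The median log2 fold change of the members tested was 0.33 in humanized livers, against −0.05 over all human genes tested, and −0.49 in WT livers, against 0.03 over all mouse genes tested. By sign, 5 of 7 members were above 0 in humanized and 9 of 10 below 0 in WT livers. These signs are not independent, since several mouse members varied together from liver to liver. Without some single liver, the sign turned for ORM1 in humanized and for Orm2, Crp, Apcs and Lcn2 in WT livers. No member had groups that did not overlap, which 7.16% of human and 2.49% of mouse genes had.

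**Figure D2:**
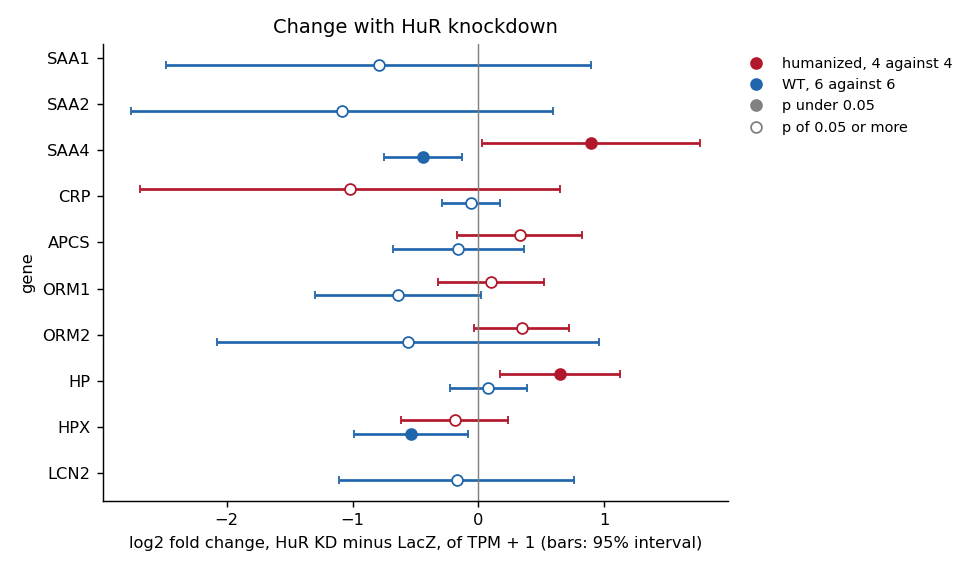
Log2 fold change of TPM + 1 with HuR knockdown for each member, humanized livers in red and WT livers in blue, with 95% intervals from limma; filled points have an unadjusted p under 0.05. SAA4 lies at 0.89 in humanized and −0.44 in WT livers, and HP at 0.65 against 0.08.

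SAA4, the constitutive serum amyloid, was higher with knockdown in human hepatocytes and lower in mouse livers. Human SAA4 (ENSG00000148965.10) read 56.0, 103, 98.0 and 41.2 TPM in humanized HuR KD replicates 1 to 4 and 67.3, 21.7, 31.7 and 39.9 TPM in humanized LacZ replicates 1 to 4. The groups overlapped: 2 knockdown livers lay above all controls, and 3 controls lay below all knockdown livers. The log2 fold change was 0.89 (standard error 0.38, n = 4 and 4, 1.86-fold, limma p = 0.0436, adjusted p = 0.419), and a two-sided exact permutation test gave p = 0.114, where the smallest possible is 0.0286. The call was lost when any 1 of 5 livers was left out: HuR KD replicates 2 (log2 fold change 0.71) and 3 (0.73), and LacZ replicates 2 (0.65), 3 (0.82) and 4 (0.93). It was also lost with no filter on TPM and without the trend in the variance. The log2 fold change was positive in each of these fits.

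Mouse Saa4 ran from 94.3 to 159.8 TPM (median 124) in the 6 WT HuR KD livers and from 135 to 207 TPM (median 172) in the 6 WT LacZ livers. Of the knockdown livers, 4 lay below all controls and 6 of 6 below the control median. The log2 fold change was −0.44 (standard error 0.14, 0.736-fold, limma p = 0.00943, adjusted p = 0.159), and the two-sided exact permutation test gave p = 0.0260. Saa4 was called in all 21 alternative fits, those without any 1 liver included, at log2 fold changes from −0.51 to −0.36. WT LacZ replicates 4 and 5, which were high for other members, were the lowest controls for Saa4, at 135 and 139.8 TPM.

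The knockdown effect on SAA4 differed between the species by more than the error of a joint fit. In a joint limma fit over 8202 same-symbol pairs, the human minus mouse effect of SAA4 was 1.34 on the log2 scale (standard error 0.37, 95% interval 0.57 to 2.10, adjusted p = 0.0370). Of all pairs, 19.7% differed at an unadjusted p under 0.05, 5.56% with the human effect higher and 14.2% with it lower, and 5.01% had an adjusted p under 0.05. SAA4 was called in all 30 alternative fits of this difference, from 1.09 to 1.62, with adjusted p between 0.00837 and 0.0988 in limma. These joint fits pool the variance of both sets. Within groups, the SD of SAA4 on the log2 scale was 0.65 in humanized and 0.27 in WT livers. The standard error of the difference was therefore below that of the human effect alone, 0.38. It and the adjusted p may be too small. SAA4 is 1 of 2 members called out of 7 tested, HP being the other.

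Saa1 and Saa2, the inducible serum amyloids, could not be tested in human cells and were too scattered in mouse livers for a difference to show. Saa1 was 15.1 to 237 TPM (median 29.1) in WT HuR KD and 27.4 to 505 TPM (median 47.4) in WT LacZ livers. HuR KD replicate 3 and LacZ replicate 4 were the high ends. Saa2 was 6.26 to 95.1 TPM (median 11.3) with knockdown and 13.2 to 258 TPM (median 22.5) without, with the same livers on top. The log2 fold changes were −0.79 for Saa1 (95% interval −2.48 to 0.89, limma adjusted p = 0.677) and −1.08 for Saa2 (−2.76 to 0.59, adjusted p = 0.549). Without HuR KD replicate 3, Saa2 passed the unadjusted threshold at −1.58, and Saa1 moved to −1.28 and did not. Without LacZ replicate 4, the values shrank to −0.24 for Saa1 and −0.51 for Saa2, and neither passed. Saa3, a neighbour expressed mainly outside hepatocytes, ran from 3.17 to 13.0 TPM over the 12 livers, with a log2 fold change of −0.35 (limma adjusted p = 0.580).

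Haptoglobin mRNA was higher with knockdown in human hepatocytes. HP (ENSG00000257017.9) read 260.4, 204, 251 and 179 TPM in humanized HuR KD replicates 1 to 4 and 158, 112, 114 and 193 TPM in humanized LacZ replicates 1 to 4. Only HuR KD replicate 4 fell within the range of the controls. The log2 fold change was 0.65 (standard error 0.21, n = 4 and 4, 1.57-fold, limma p = 0.0127, adjusted p = 0.273), and the two-sided exact permutation test gave p = 0.0571, above the smallest possible, 0.0286. HP was called in all 18 alternative fits, from 0.54 to 0.80, with each of the 8 livers left out among them. Its near copy HPR, haptoglobin-related protein, was 32.6 to 64.1 TPM with knockdown and 26.7 to 40.8 TPM without, a log2 fold change of 0.28 that did not pass (standard error 0.23, limma adjusted p = 0.698).

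Mouse Hp was high in all 12 WT livers, from 3846 to 6058 TPM (median 4649.7) with knockdown and from 3642 to 5643 TPM (median 4321) without. The ranges overlapped almost fully, and the log2 fold change was 0.08 (95% interval −0.23 to 0.38, limma adjusted p = 0.841). The human minus mouse effect was 0.57 (standard error 0.25, limma adjusted p = 0.188), past the unadjusted threshold. It lost the call without humanized HuR KD replicate 1 (0.50) or 3 (0.51), humanized LacZ replicate 2 (0.47) or 3 (0.47), WT HuR KD replicate 4 (0.52) or WT LacZ replicate 4 (0.50).

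Hemopexin mRNA was lower with knockdown in mouse livers. Hpx ran from 2948 to 6221 TPM (median 3957) in WT HuR KD and from 4718 to 9405 TPM (median 5319.8) in WT LacZ livers. Of the knockdown livers, 4 lay below all controls, and LacZ replicates 4 and 5, at 9405 and 7841 TPM, lay above all knockdown livers. The log2 fold change was −0.54 (standard error 0.21, n = 6 and 6, 0.689-fold, limma p = 0.0237, adjusted p = 0.230), with p = 0.0346 by two-sided exact permutation. The call was lost without LacZ replicate 4 (−0.41), LacZ replicate 5 (−0.47) or HuR KD replicate 6 (−0.44). Human HPX read 435, 385, 435 and 324 TPM with knockdown and 496, 326, 445 and 554 TPM without. Its log2 fold change was −0.19 (95% interval −0.61 to 0.24, limma adjusted p = 0.762), and the human minus mouse effect, 0.35, had a 95% interval of −0.27 to 0.97.

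**Figure D3:**
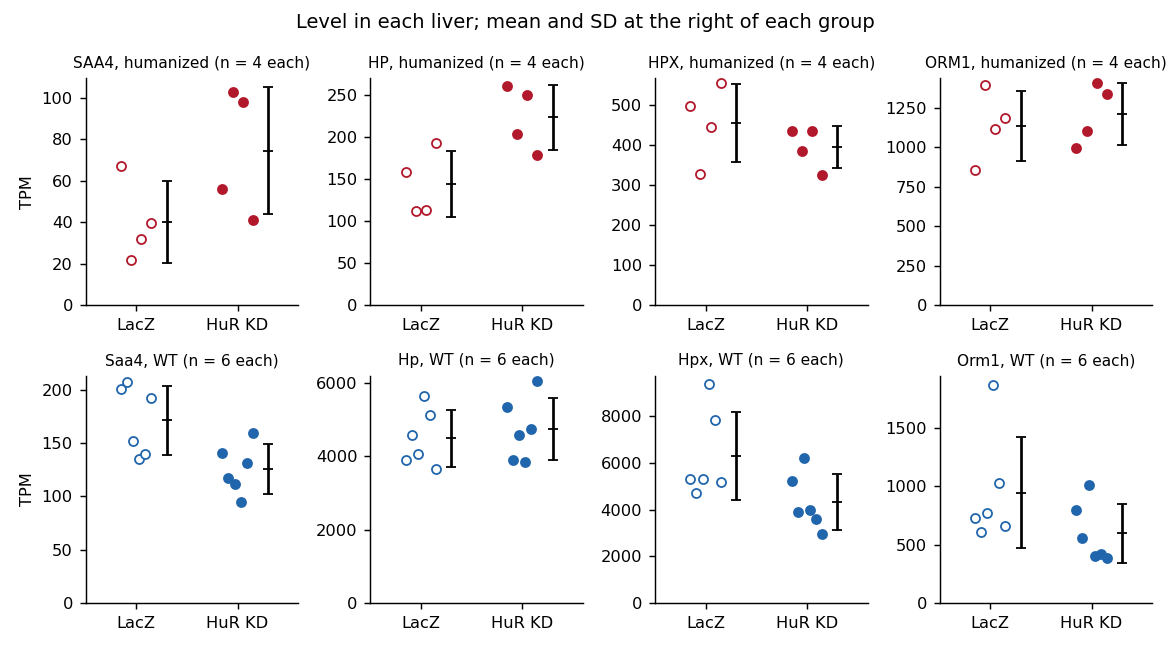
TPM of SAA4, HP, HPX and ORM1 in every liver, from 0, humanized livers in the upper and WT livers in the lower row; open points are LacZ, filled points HuR KD, and bars give mean and SD of 4 or 6 livers. Human SAA4 and HP are mostly higher with knockdown, while 4 of 6 WT HuR KD livers lie below all WT LacZ livers for Saa4, Hpx and Orm1.

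Of the orosomucoids, human ORM2 (ENSG00000228278.4) read 863, 919, 1238 and 1059 TPM with knockdown and 732, 983, 762 and 735 TPM without. Its log2 fold change was 0.34 (standard error 0.17, limma adjusted p = 0.483), short of a call. LacZ replicate 2 was the high control, and without it ORM2 passed the unadjusted threshold at 0.44, as it did in 6 other alternatives. Without both LacZ replicate 2 and HuR KD replicate 4, chosen after seeing the data, HP, SAA4 and ORM2 were called, 3 members. Human ORM1 read 997, 1101, 1409 and 1339 TPM with knockdown and 857, 1395, 1116 and 1183 TPM without, a log2 fold change of 0.10 (95% interval −0.32 to 0.52).

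Mouse Orm1 was 388 to 1008 TPM (median 491) with knockdown and 604 to 1867 TPM (median 752) without, and 4 of 6 knockdown livers lay below all controls. The log2 fold change was −0.64 (standard error 0.30, limma adjusted p = 0.326), short of a call. It passed the unadjusted threshold in 6 of 21 alternatives, among them those without WT HuR KD replicate 3 (−0.81) and without WT LacZ replicate 2 (−0.75). Without WT LacZ replicate 4, the highest control, the Orm1 value shrank to −0.42 and did not pass. Orm2 was far lower, at 8.21 to 63.4 TPM with knockdown and 8.75 to 263 TPM without, and its log2 fold change of −0.56 had a 95% interval of −2.08 to 0.95. Without WT LacZ replicate 4, the liver at 263 TPM, the Orm2 value was 0.07. Orm3, which lies between them on chromosome 4, was lower with knockdown: 3.36 to 14.4 TPM (median 6.24) against 8.77 to 36.0 TPM (median 15.9), with 5 of 6 knockdown livers below all controls. Its log2 fold change was −1.22 (standard error 0.35, limma p = 0.00392, adjusted p = 0.111), and p = 0.0152 by two-sided exact permutation. The human minus mouse effect was 0.74 for ORM1 (limma adjusted p = 0.321) and 0.90 for ORM2 (adjusted p = 0.615), within the error of each.

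The pentraxins gave no call. APCS (ENSG00000132703.4) read 685, 790.4, 1073 and 1088 TPM with knockdown and 567, 906, 836 and 594 TPM without, a log2 fold change of 0.33 (95% interval −0.17 to 0.82, limma adjusted p = 0.631). Mouse Apcs was 64.4 to 143 TPM with knockdown and 75.1 to 205 TPM without, at −0.16 (95% interval −0.68 to 0.36). CRP (ENSG00000132693.12) was at 0, 2.89, 2.25 and 7.61 TPM in humanized HuR KD replicates 1 to 4, on 0 to 170 reads. In replicate 1, 0 reads allow up to 0.955 TPM, counting error only. Its log2 fold change was −1.02, with a 95% interval of −2.69 to 0.65. Without humanized LacZ replicate 2, the CRP value was −0.40.

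Mouse Crp varied little, at 152 to 236 TPM with knockdown and 176 to 232 TPM without, and −0.06 (95% interval −0.29 to 0.17). Lipocalin 2, which neutrophils also store, was 5.81 to 26.3 TPM in WT HuR KD and 6.91 to 49.3 TPM in WT LacZ livers, at −0.17 (95% interval −1.11 to 0.76). The sign of Lcn2 turned without WT LacZ replicate 4, the liver at 49.3 TPM, to 0.16, and without WT HuR KD replicate 4 to 0.03.

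Liver-to-liver spread was wide for several mouse members, and much of it was shared among them. Across the 12 WT livers, after subtracting each group's mean of log2(TPM + 1), Saa1 correlated with Saa2 at r = 0.987 (rho = 0.951), with Orm1 at 0.963 (rho = 0.804), with Orm2 at 0.916 (rho = 0.832) and with Hpx at 0.906 (rho = 0.65). It correlated with Apcs at 0.764 (rho = 0.601), with Lcn2 at 0.733 (rho = 0.888) and with Hp at 0.565 (rho = 0.657). Of the 9 pairs, these first 6 passed a permutation test with 100000 resamples, the largest adjusted p for r being 0.0116, that of Lcn2. Hp had an adjusted p of 0.0729 for r and 0.0397 for rho by permutation, and Apcs 0.00596 for r and 0.0545 for rho. Reads may have been split between Saa1 and Saa2, and the part of that in their r was not tested.

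Saa4 and Crp did not follow. Saa1 correlated with Saa4 at r = −0.40 (rho = −0.24, permutation adjusted p = 0.222 for r and 0.456 for rho) and with Crp at r = 0.06 (rho = −0.25, permutation adjusted p = 0.871 for r and 0.456 for rho). Without WT HuR KD replicate 3 and WT LacZ replicate 4, the livers farthest from the median of Saa1, r was 0.957 for Saa2, 0.886 for Orm1, 0.848 for Lcn2, 0.771 for Hpx and 0.761 for Orm2, and −0.07 for Saa4. WT LacZ replicate 4 was the highest of its group for 8 of 10 members, and WT HuR KD replicate 3 of its group for 5 of 10. Neutrophil markers (11 genes) summed to 23.7 TPM in WT LacZ replicate 4 and to 6.63 to 14.5 TPM in the other 5 controls, and to 7.47 to 12.9 TPM in WT HuR KD livers. The part of these cells in the spread was not tested. In humanized livers these correlations could not be computed, since SAA1 was at 0 in 7 of 8 livers. There LacZ replicate 2 was the highest of its group for 7 of 10 members and the lowest for SAA4, HP and HPX.

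**Figure D4:**
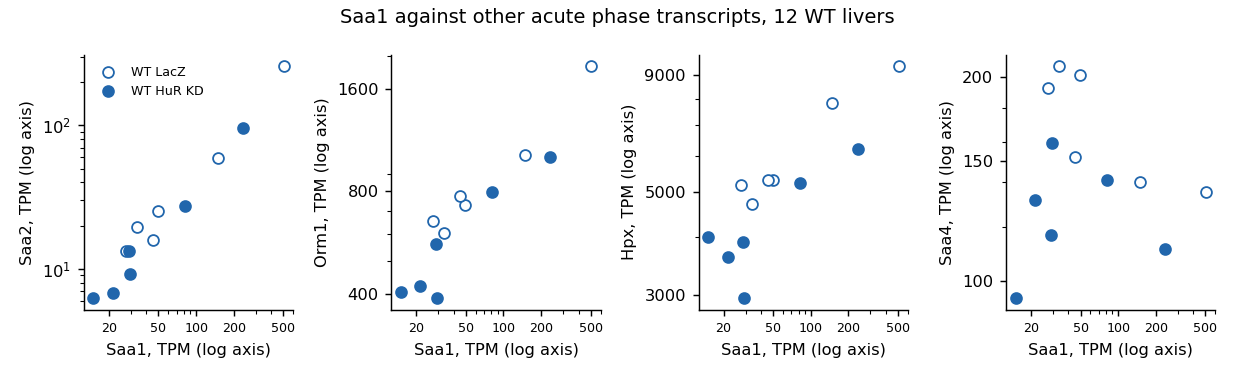
TPM of Saa2, Orm1, Hpx and Saa4 against Saa1 in each of the 12 WT livers, both axes on a log scale; open points are WT LacZ, filled points WT HuR KD. Saa2, Orm1 and Hpx climb with Saa1 from 15.1 to 505 TPM, and Saa4 does not.

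Other acute phase genes were counted as lists. Of 24 further positive acute phase genes, 17 were tested in human cells and 2 were lower, 0 higher, a share close to the 11.5% of all human genes called. IL1R1, the interleukin-1 receptor, had a log2 fold change of −0.65 (limma adjusted p = 0.226), and CP, ceruloplasmin, of −0.60 (adjusted p = 0.415). The list's median was −0.32, against −0.05 over all human genes. In WT livers 21 were tested: Itih3 (0.45, limma adjusted p = 0.186) and Serpina10 (0.23, adjusted p = 0.229), a pair of protease-inhibitor family genes, were higher, and Steap4, a metalloreductase, was lower (−0.28, adjusted p = 0.282), with a median of −0.07. Of all mouse genes tested, 16.0% were called. The negative acute phase genes, which fall in inflammation, were called on both sides, beside 11.5% of all human and 16.0% of all mouse genes. Of 11 tested in human cells, RBP4, the retinol carrier, was higher (0.53, limma adjusted p = 0.148), and SERPINA6, the cortisol carrier, and KLKB1, prekallikrein, were lower (−1.55 and −0.53, adjusted p = 0.129 and 0.328). Of 10 tested in WT livers, Itih2 and Serpina6 were higher (0.30 and 0.64) and Klkb1 was lower (−0.32), with limma adjusted p of 0.260, 0.267 and 0.119. The human minus mouse effect of SERPINA6 was −2.19 (limma adjusted p = 0.00557), on human levels of 0.694 to 1.61 TPM with knockdown, some of them from as few as 2 reads, and 2.05 to 9.96 TPM without.

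Of 26 genes of interleukin-6, interleukin-1 and TNF signalling, 19 were tested in human cells, 4 lower and 2 higher, against 11.5% of all human genes called, with a median of −0.05, that of all human genes. IL6ST, which encodes gp130, read 38.4, 34.0, 37.3 and 45.2 TPM with knockdown and 77.8, 55.4, 73.7 and 82.2 TPM without, so the groups did not overlap. Its log2 fold change was −0.87 (standard error 0.16, 0.545-fold, limma adjusted p = 0.0768), while mouse Il6st was at 0.03 (95% interval −0.11 to 0.17). The human minus mouse effect was −0.91 (limma adjusted p = 0.00174). JAK1, the kinase bound to gp130, was 15.5 to 18.2 TPM with knockdown and 19.5 to 30.1 TPM without, at −0.53 (limma adjusted p = 0.225), and mouse Jak1 was higher at 0.15 (adjusted p = 0.210). Their difference was −0.68 (limma adjusted p = 0.00707). NFKB1, a subunit of NF-κB, and JAK2 were lower in human cells, at −0.40 and −0.49, and TNFRSF1A and LIFR, receptors for TNF and leukemia inhibitory factor, were higher at 0.33 and 0.40, with limma adjusted p from 0.422 to 0.433. In WT livers 22 were tested, 3 lower and 1 higher, close to the 16.0% of all mouse genes called, with a median of −0.03: Cebpb was lower at −0.53, Nfkbia, an NF-κB inhibitor, at −0.29 and Irak1, a kinase of interleukin-1 signalling, at −0.30, with limma adjusted p of 0.134, 0.159 and 0.167. SOCS3, which IL-6 induces, was listed at 0 in all 8 humanized livers, and mouse Socs3 was 4.09 to 8.80 TPM.

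Among 13 receptors and partners of these proteins, 0 of 6 tested in human cells were called, where 11.5% of all human genes were. In WT livers Fcgr1, an Fc receptor that also binds CRP, and Fpr2, a receptor of serum amyloid A, were lower at −0.81 and −0.69 (limma adjusted p = 0.0818 and 0.190), 2 of 9 tested, with 0 higher, where 6.94% of all mouse genes were called lower. Both are genes of myeloid cells. Kupffer cell and macrophage markers fell in the same livers: 6 of 11 were called lower, against the same 6.94%, among them Clec4f at −0.75 (limma adjusted p = 0.0613) and Cd68 at −0.40 (adjusted p = 0.114). The 11 summed to 484 to 820 TPM with knockdown and 685 to 940 TPM without. Their part in the changes of Saa4, Hpx and Orm3 was not tested. In bulk RNA, fewer cells of a type and less RNA per cell cannot be told apart. Of 7 hepatocyte markers tested in WT livers, 0 were called, where 16.0% of all mouse genes were. In humanized livers the human Kupffer cell and macrophage markers summed to at most 4.83 TPM, with C1QA, C1QB, C1QC, CLEC4F, MARCO and VSIG4 at 0, and the neutrophil markers to at most 1.04 TPM.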

How the data were processed

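Liver RNA of 8 humanized and 12 WT mice was sequenced. The authors trimmed reads with cutadapt (Trim Galore in the submitters' notes), aligned them with HISAT2, for humanized livers to a combined human and mouse index with GENCODE annotation, counted them with featureCounts, and deposited TPM, 1 table of human genes and 1 of mouse genes. Reads per gene, and so depth, were recovered from the TPM steps, which solved to whole reads within 0.01. Depth, 1424093 to 44669180 reads, sets the precision of low members, and floors of 3 reads cover counting error only.

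Groups came from the sample labels. Each set was fitted with limma 3.58.1 (R 4.3.3) on log2(TPM + 1) with a trended empirical Bayes step, for genes with mean TPM of at least 1. Fold changes on this scale understate those of low genes. A gene was called at unadjusted p under 0.05, with Benjamini-Hochberg adjusted p over all genes tested beside it. Species were compared in a joint limma fit over same-symbol pairs, with the variance pooled over both sets. Its errors may be too small for genes that scattered more in humanized livers. Single members were also tested by exact permutation over livers, 2-sided, with a smallest possible p of 0.0286 (humanized) or 0.00216 (WT). Correlations used 100000 resamples. From each other list, genes were named by smallest p in each direction among those called; others named were chosen after their values were seen. Members and lists were chosen with earlier results of these data known. Labels do not say more of the livers than their group, so p-values measure spread between these livers. Replicates differed beyond sampling noise in all 42 pairs. Scripts were tested on simulated data. Alternatives were other pseudocounts, filters and scalings, no trend, voom on recovered reads, a replicate block and leaving out each liver. Mouse places are from GENCODE on GRCm38.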

Additional observations from a re-analysis of the deposited data

Results flagged for a closer look

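In 11 of 43 groups of 4 or 6 livers, 1 liver lay far from the others by Dixon's test. For normally distributed values about 1 of 20 groups would pass. The test was run on TPM without a log, and each liver flagged was the highest of its group. With values skewed upward that rate does not apply, so whether 11 exceeds chance was not tested. WT LacZ replicate 4 stood above its group for Saa1 (505 TPM), Saa2 (258 TPM), Orm1 (1867 TPM), Orm2 (263 TPM) and Lcn2 (49.3 TPM). WT HuR KD replicate 3 did so for Saa1 (237 TPM), Saa2 (95.1 TPM), Orm3 (14.4 TPM) and Saa3 (12.2 TPM). Among humanized livers, LacZ replicate 2 stood out for ORM2 (983 TPM) and CRP (22.8 TPM). In 2 further groups a single liver was above 0, which passes the test by construction: SAA1 in LacZ replicate 2 (0.128 TPM) and SAA2 in HuR KD replicate 4 (0.0405 TPM, 1 read). These genes share livers, so the 11 are not independent.

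The knockdown effect differed between human and mouse at an unadjusted p under 0.05 for 15 of 62 genes tested over all lists, markers included, where 19.7% of all pairs differed. Human minus mouse, on the log2 scale, it was 1.34 for SAA4, 0.57 for HP, 0.58 for LIFR, 0.49 for SCARB1 (an HDL and serum amyloid A receptor), 0.47 for RBP4 and 0.33 for ASGR1, a hepatocyte marker. It was −2.19 for SERPINA6, −1.28 for RELN, a stellate cell marker, −1.04 for IGFBP3, −1.02 for CD163 (the haptoglobin-hemoglobin receptor), −0.91 for IL6ST, −0.68 for JAK1, −0.58 for ITIH2, −0.52 for FGB and −0.40 for NFKB1. Human RELN and CD163 were low, with mean log2(TPM + 1) of 0.85 and 0.56 in humanized HuR KD livers. In humanized LacZ livers these means were 2.04 and 1.35.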

How the results depend on the processing

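In humanized livers 2 members were called. The count was 1 with no filter on TPM, 1 without the trend and 1 with the replicate block, SAA4 being lost each time, 0 at adjusted p under 0.05 in limma, and 1 to 3 when 1 liver was left out. It was 3, with ORM2 added, under median-of-ratios, quantile or protein-coding scaling and with voom, and 3 without both livers that deviate together. In WT livers 2 were called, 0 at adjusted p under 0.05 in limma, 3 with protein-coding scaling or voom, Orm1 being added, and 1 to 4 when 1 liver was left out. The species difference was called for 2 members, for 1 with the replicate block, HP being lost, for 3 with quantile normalization, ORM1 being added, for 1 at adjusted p under 0.05 in limma and for 1 to 3 without 1 liver. Without 1 liver, log2 fold changes turned sign for ORM1 in humanized livers (−0.031 to 0.20) and in WT livers for Orm2 (−0.90 to 0.068), Crp (−0.11 to 0.019), Apcs (−0.28 to 0.0042) and Lcn2 (−0.37 to 0.16). Over protein-coding genes the members' summed control level moved from 3316 to 10115 TPM in humanized and from 12513 to 16277 TPM in WT livers, since each liver's scale then leaves out other gene classes. For the other changes the cause was not tested.

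Replicate numbers are shared between groups but carry no stated pairing. Same-numbered livers deviated together at r over 0.1 in 1 of 4 humanized and 2 of 6 WT pairs, and only 1 and 2 of them correlated best with their own number. Depth limits what a 0 means: 0 reads of CRP in humanized HuR KD replicate 1 allow up to 0.955 TPM.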
